A study of Mus musculus with 11 samples.

Results

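The cytosolic ribosomal protein genes were followed in RNA pulled down with ribosomes that had been tagged in endothelial cells of mouse brain and glioma. They were taken by symbol: Rpl or Rps followed by a digit, with Rplp0, Rplp1, Rplp2 and Rpsa added. Rows with -ps or -rs in the symbol, the Rps6k kinases and Rpl13 were left out. The rule found 91 of 45802 genes. Of these, 42 code for proteins of the large subunit, 31 for proteins of the small subunit and 3 for the stalk proteins, and these 76 are called the core genes here. A further 14 are paralogues or recent copies, such as Rpl22l1 and Rps27l. Of these copies, 4 are pseudogenes in RefSeq although their symbols do not say so: Rps12l1, Rps3a2, Rps3a3 and Rps4l. The last, Rps19bp1, fits the spelling but codes for a protein that binds Rps19 and is not part of the ribosome.

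The mice were adult C57BL/6, and in all groups they carried the ribosomal protein L10a fused to enhanced green fluorescent protein, expressed from the promoter of VE-cadherin (Cdh5), an endothelial gene. Tagged ribosomes were captured with antibody-coated beads, a method meant to measure message on ribosomes of the tagged cells (translating ribosome affinity purification). Markers of other cell types were also found in these libraries, as given below. Healthy brain was taken from wild type (n = 3) and Eltd1-/- animals (n = 3), and tumour from wild type (n = 3) and Eltd1-/- animals (n = 2). Tumours had grown from GL261, a mouse glioma line, placed in the brain. Eltd1, now Adgrl4, codes for an endothelial receptor of the adhesion family. The protocol speaks of 3 mouse samples for each group, of which the knockout tumours are represented by 2. Levels are given in FPKM, that is, fragments scaled to transcript length and library size. Read counts were not used here, and the depth of each library is unknown.

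Each cytosolic ribosome holds about equal numbers of nearly all its proteins, on a small subunit that decodes the message and a large subunit that joins amino acids. Most of the mRNAs for these proteins begin with a C followed by a run of pyrimidines, the 5′ terminal oligopyrimidine or TOP motif. This motif places their translation under the kinase mTORC1 and the RNA-binding protein Larp1, so that growth signals can move TOP mRNAs on or off ribosomes together. Several genes have paralogues that stand in for the main copy in certain tissues. Rpl10a is also the protein that carried the tag in these mice.

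The start sites of the genes were read from RefSeq on GRCm38.p6, where windows of 50 bases, from 25 before the annotated start to 25 from it, were at hand for 56 of the 76 core genes. The following windows show the TOP pattern in genes for a kinase substrate of the small subunit (Rps6), a stalk protein (Rplp2), and further proteins of the large (Rpl35) and small (Rps27) subunits. Sequences run 5′ to 3′, the annotated start is base 26, and capitals mark the longest run of C and T.
Rps6, chr4:86857343-86857392, minus strand: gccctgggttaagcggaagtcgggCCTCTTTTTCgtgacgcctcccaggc
Rplp2, chr7:141447626-141447675, plus strand: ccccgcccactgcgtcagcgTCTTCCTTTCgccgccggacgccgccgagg
Rpl35, chr2:39005107-39005156, minus strand: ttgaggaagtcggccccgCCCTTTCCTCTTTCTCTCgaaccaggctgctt
Rps27, chr3:90213624-90213673, minus strand: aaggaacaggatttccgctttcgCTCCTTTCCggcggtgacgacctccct
In each, the run covers the annotated start. A C at the start followed by at least 4 pyrimidines was present in 13 of 56 core genes (23.2%), against 3.01% of all 27025 genes with a window. A pyrimidine run of at least 8 bases anywhere in the window was present in 29 of 56 (51.8%), against 22.3% of all genes. Annotated starts can lie some bases from the true one, and a match is a description of the letters only. The motif CCGGAAGT, a site of the ETS family of factors, was found on either strand in the 300 bases around the start (250 before and 50 from it) of 11 of 56 core genes (19.6%). The share was 4.31% of all genes and 8.08% of the tested genes outside the set.

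The windows of genes whose levels are described most closely below differ more among themselves. They are shown because the report describes these genes library by library. The windows of the paralogues Rpl22l1 and Rps27l stand beside those of Rps2, Rplp0 and both annotated starts of Rpl10a.
Rps2, chr17:24720038-24720087, plus strand: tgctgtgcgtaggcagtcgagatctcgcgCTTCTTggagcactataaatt
Rplp0, chr5:115559442-115559491, plus strand: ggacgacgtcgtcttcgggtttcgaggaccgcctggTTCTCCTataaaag
Rpl10a, chr17:28328446-28328495, plus strand: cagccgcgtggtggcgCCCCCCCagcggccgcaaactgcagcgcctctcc
Rpl10a, chr17:28328540-28328589, plus strand: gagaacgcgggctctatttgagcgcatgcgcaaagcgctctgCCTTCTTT
Rpl22l1, chr3:28805483-28805532, plus strand: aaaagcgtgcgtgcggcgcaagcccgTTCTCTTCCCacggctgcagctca
Rps27l, chr9:66946061-66946110, plus strand: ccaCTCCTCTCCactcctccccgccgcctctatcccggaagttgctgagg
No window among these has the C start with at least 4 following pyrimidines. Rpl22l1 and Rps27l have runs of 10 and 9 pyrimidines, and the second start of Rpl10a has a run of 8 that ends the window. The 300 bases around the first start of Rps27l hold CCGGAAGT, and those of Rps2, Rplp0, Rpl10a and Rpl22l1 do not.

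The core genes were mostly abundant messages. Their mean FPKM over the 11 libraries ran from 67.9 (Rpl36a) to 5176 (Rpl13a), with a median of 334, where the median of all tested genes was 11.8. Of the 76, 8 had a mean above 1000, 58 lay between 100 and 1000, and 10 lay under 100. The highest were Rpl13a, Rpl26 (2618), the stalk gene Rplp2 (2462), Rps6 (1696) and Rplp1 (1248). Because FPKM are scaled to transcript length, these levels can be set beside each other, although near-identical copies elsewhere in the genome make the level of any single ribosomal protein gene uncertain. The products are needed in nearly equal numbers, and the mRNA levels on this scale spanned from 67.9 to 5176.

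At the other end, 6 genes were listed at 0 in all 11 libraries: Rpl3l, known from striated muscle, Rpl10l and Rpl39l, known from testis, and the copies Rps12l1, Rps12l2 and Rps27rt. A further 9 were listed at 0 in some libraries, namely Rps3a3 (8 libraries), Rpl37rt (6), Rps27l (5), Rps4l (2), Rps19bp1 (2), and Rpl22l1, Rpl24, Rpl31 and Rps21 (1 each). The zeros of the core genes Rpl24, Rpl31 and Rps21 all fell in wild type tumour library 2. An exact 0 in these files can be a failed estimate. Among the expressed paralogues, the main copy was the more abundant in the mean over the 11 libraries: Rpl7 had a mean of 591 FPKM and Rpl7l1 of 41.7, Rpl22 of 278 and Rpl22l1 of 27.0, and Rps27 of 191 and Rps27l of 15.02. The same held for Rps4x (829.8) and Rps4l (12.2). Rpl36a and Rpl36al were closest, at 67.9 and 46.2, and in knockout tumours Rpl36al had the higher mean (65.8 against 56.1). These genes lie on different chromosomes, X and 12. Rpl39, whose paralogue Rpl39l was listed at 0, ranged from 24.4 to 161 FPKM.

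Some libraries stood apart. In wild type tumour library 2, 24.0% of the genes at 1 FPKM or more in at least 9 of 11 libraries were listed at 0, against 0.0285 to 5.79% in the others. Markers of neurons (13 genes, 9 of them above 0 in every library and none at 0 in all) summed to 3617 FPKM in wild type tumour library 3. In the other tumour libraries they summed to 148 to 1720, and in brain to 5626 to 7543. Oligodendrocyte markers (9 genes) summed to 949 FPKM in wild type tumour 3 and to 287 to 473 in the other tumours. Astrocyte markers (8 genes) summed to 730 FPKM in wild type tumour 3 and to 282 to 586 in the other tumours. In brain these sums were 965 to 1535 and 932 to 1610. All 19 endothelial markers were above 0 in every library, and their sum was 635 to 1439 in tumour and 3791 to 5525 in brain. Microglia and macrophage markers, 14 genes, summed to 160 to 464 in tumour and 41.9 to 67.9 in brain, and 25 proliferation genes to 1538 to 2935 and 54.6 to 105. Adgrl4 was at 5.82 to 23.6 FPKM in the knockout libraries and at 27.4 to 192 in the wild type ones. In these bulk libraries, fewer cells of a type and less RNA per cell cannot be told apart, and the part that other cells had in the results below was not tested.

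The share of all FPKM that the 91 genes held was 6.60%, 6.00% and 6.87% in the 3 wild type brains, and 8.30%, 6.00% and 5.22% in the 3 knockout brains. In wild type tumours it was 9.00%, 10.6% and 4.94%, and in knockout tumours 7.78% and 7.37%. Wild type tumours thus held both the highest shares and the lowest of all 11 libraries, and the groups overlapped except that both knockout tumours lay above all wild type brains. The median of the core genes was 526, 505 and 222 FPKM in wild type tumours, against 245 to 304 in wild type brains, 219 to 368 in knockout brains and 319 and 355 in knockout tumours. The library with the low value, wild type tumour 3, had the highest neuron, oligodendrocyte and astrocyte marker sums among the tumours. Its endothelial marker sum, 635 FPKM, was the lowest. The ratio of the small subunit sum to the large subunit sum varied little, from 0.464 to 0.544.

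**Figure D1:**
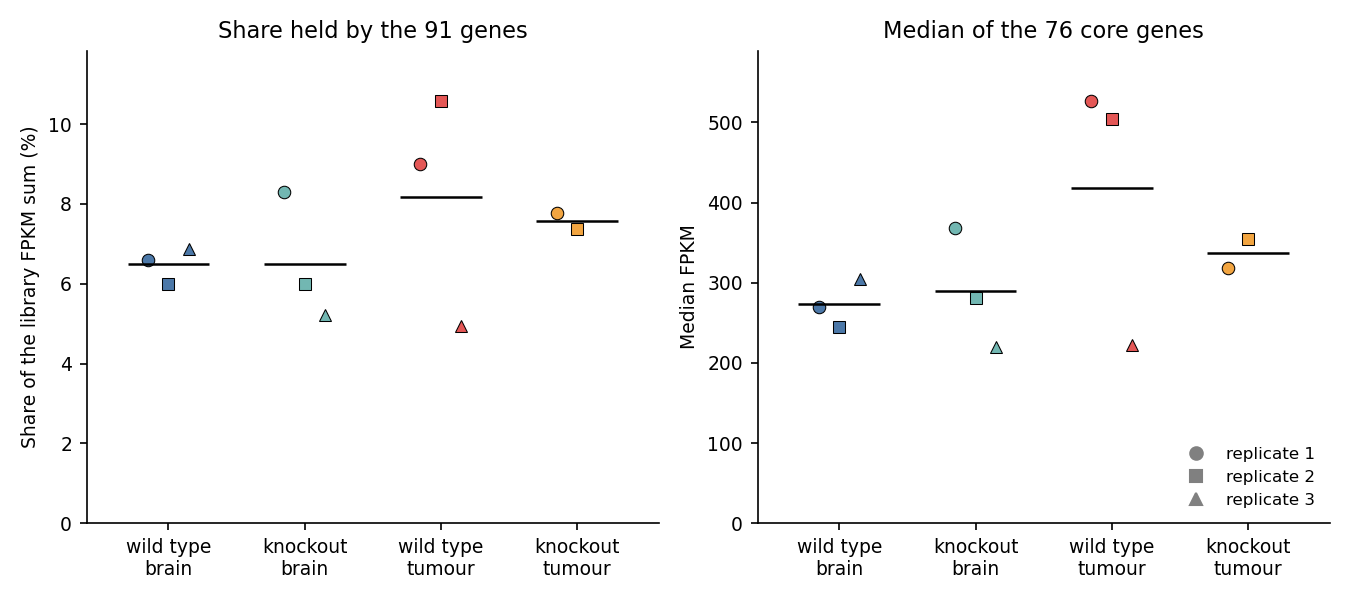
Left, the share of each library's FPKM sum held by the 91 ribosomal protein genes (%), and right, the median FPKM of the 76 core genes, by group. Points are libraries, marked by replicate, and lines are group means; wild type tumours 1 and 2 sit at 9.00% and 10.6%, and wild type tumour 3 at 4.94%.

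Tumour was first set against brain in wild type mice. Rpl10a, of the L1 stalk of the large subunit, and Rps2, a small subunit protein near the entry of the mRNA, rose in tumour, as did Rps19bp1. The paralogues Rpl22l1 and Rps27l fell. No other gene of the set passed the test. Of the 91 genes, 84 reached 1 FPKM in at least 2 libraries and were tested. With limma on log2(FPKM + 1) and Benjamini-Hochberg adjustment over all 15604 tested genes, 5 of the 84 passed at 0.05, or 5.95%, against 19.4% of all tested genes. Those that rose were 3 (3.57%, against 7.7%), and those that fell 2 (2.38%, against 11.7%). An unadjusted p under 0.05 was reached by 15 of the 84, and by 5362 of all 15604 tested genes. The median log2 difference was 0.15 over the 84 tested genes and -0.26 over all tested genes.

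Rps2 had 665, 876 and 371 FPKM in wild type tumours and 227, 140.0 and 298 in wild type brains. All 3 tumours lay above all 3 brains. Its log2 difference was 1.499 (SE 0.38, adjusted p = 0.0187). It lost the call when wild type tumour 1, wild type tumour 2 or wild type brain 2 was left out (adjusted p = 0.0617, 0.0604 and 0.0690).

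Rpl10a had 190.3, 269 and 77.6 FPKM in wild type tumours, and 48.2, 26.1 and 73.6 in wild type brains. The lowest tumour was 77.6 and the highest brain 73.6, so the groups were separate by a small margin. The log2 difference was 1.78 (SE 0.51, adjusted p = 0.0321), and it lost the call without any of wild type tumours 1 and 2 or wild type brains 1 and 2, with adjusted p from 0.0682 to 0.106. FPKM of this gene cannot tell the native message from that of the tagged L10a, where the transgene carries the same sequence. Cdh5, whose promoter drives the tag, was at 16.9, 4.28 and 8.11 FPKM in wild type tumours and at 27.6, 29.3 and 36.7 in wild type brains. It was thus lower in every wild type tumour than in every wild type brain. The part that the transgene had in the Rpl10a values was not tested.

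Rpl22l1, the paralogue of Rpl22, had 4.55, 0 and 4.84 FPKM in wild type tumours and 32.8, 42.8 and 27.5 in wild type brains. The groups did not overlap. The log2 difference was -3.45, with an SE of 0.80 and an adjusted p of 0.0137 (limma). Its size depends on the 1 FPKM added before the logarithm, and was -4.68 with 0.1 FPKM added. For Rpl22l1 the log2 difference was -2.61 without wild type tumour 2, the library with the 0. Its main copy Rpl22 had 319, 421 and 173 FPKM in tumours and 350.3, 272 and 202 in brains, with a log2 difference of 0.09 (adjusted p = 0.918).

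Rps27l, a paralogue of Rps27 and a known p53 target, was listed at 0 in all 3 wild type tumours. In wild type brains it had 31.1, 58.6 and 19.6 FPKM. The log2 difference was -5.09 (SE 1.23, adjusted p = 0.0158), a value that depends on the 1 FPKM added before the logarithm, and leaving out wild type brain 2 ended the call (adjusted p = 0.0536). Rps27 itself had 271, 130.4 and 35.1 FPKM in tumours and 386, 83.3 and 323 in brains, which overlapped. Rps19bp1 had 36.3, 40.2 and 26.2 FPKM in tumours and 0, 0 and 13.4 in brains, a log2 difference of 3.83 (SE 0.91, adjusted p = 0.0150). This value too depends on the 1 FPKM added, and was 6.04 with 0.1 FPKM added. It lost the call without wild type brain 1 (adjusted p = 0.0526) or wild type brain 2 (0.0520).

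Of the stalk genes, Rplp0 codes for the base on which P1 and P2 sit, the proteins that recruit translation factors. It had 1239, 3186 and 956 FPKM in wild type tumours and 738, 806 and 489 in wild type brains. The groups were separate, and the log2 difference of 1.23 (SE 0.48) had an adjusted p of 0.0948. Rplp1 had 1366, 882 and 955 FPKM in tumours and 1647, 1201 and 1343 in brains (log2 difference -0.40). Rplp2 had 2323, 4316 and 1311 FPKM in tumours and 2617, 2198 and 2132 in brains (log2 difference 0.03). P0 was thus higher by value in every tumour, and its partners overlapped.

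Counted by groups that do not overlap, 7 of the 84 genes were higher in every wild type tumour than in every wild type brain (8.33%, against 12.7% of all tested genes): Rpl10, Rpl10a, Rplp0, Rps2, Rps3, Rps26 and Rps19bp1. Rpl22l1 and Rps27l were lower in every tumour (2.38%, against 19.8%). Rpl10, which helps form the peptidyl transferase site, had 779, 1109 and 446 FPKM in tumours and 348, 165 and 419 in brains, with an adjusted p of 0.0820. Rps26 had 368, 776 and 228 FPKM against 174, 35.8 and 133, with an adjusted p of 0.104.

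The count rested on single libraries. Without wild type tumour 3, the library with the high neuron, oligodendrocyte and astrocyte markers, 16 of the 84 genes passed. Of these, 14 were higher in tumour, and the median log2 difference of the tested set was 0.52. Those that passed in this setting and not with all libraries were Rpl10, Rplp0, Rpl41, Rpl8, Rpl19, Rpl32, Rpl7a, Rpl4, Rps9, Rps3 and Rpl3, with log2 differences from 0.85 (Rpl3) to 1.68 (Rpl10). All tested genes then passed at 25.2%. Without wild type tumour 2, 3 passed (15.8% of all tested genes) and the median was -0.10. Without wild type brain 1, 3 passed (12.4%), and without wild type brain 2, 1 passed (12.7%). Without wild type tumour 1, 4 passed (11.8%), 1 higher and 3 lower, and the median was -0.004. Rpl37a was newly lower in that setting (-2.03, limma, adjusted p = 0.0122). With wild type tumours 2 and 3 both left out, 1 wild type tumour remained, whose spread is taken from the remaining groups. The median was then 0.57, and calls are not given for this setting. In a fit to only the wild type libraries, 3.93% of all tested genes passed. Of the 5 genes that passed with all libraries, Rps27l alone passed in that fit. The direction of the median therefore turned on which tumour libraries were used.

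**Figure D2:**
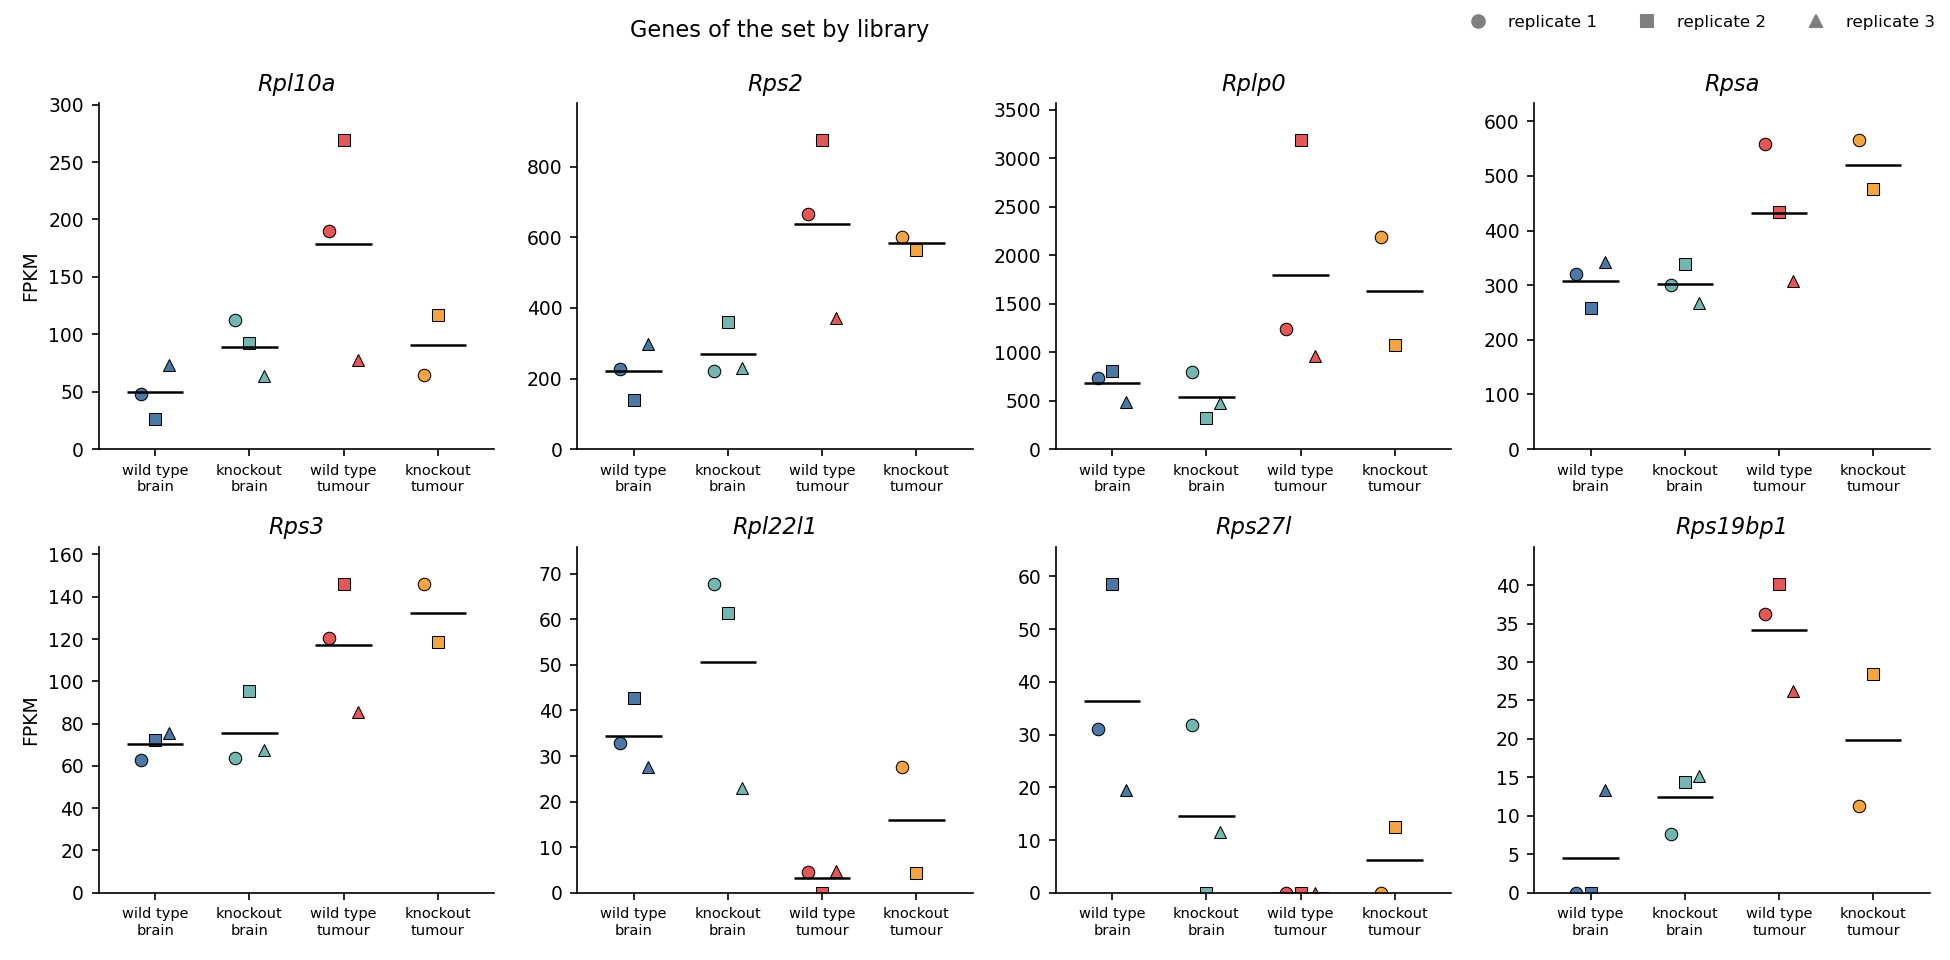
FPKM of 8 genes in each library, by group; points are libraries, marked by replicate, lines are group means, and each axis starts at 0. Rps2 and Rplp0 lie higher in each tumour than in each brain, Rpl22l1 and Rps27l are at 4.84 FPKM or less in the 3 wild type tumours, and Rps19bp1 is listed at 0 in 2 wild type brains.

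In knockout mice, none of the 84 ribosomal protein genes passed between tumour and brain by limma, where 7.08% of all tested genes passed (4.79% higher and 2.29% lower). Of the 84, 5 had an unadjusted p under 0.05, against 3837 of all 15604 tested genes. The smallest p belonged to Rplp0, Rps25, Rps2, Rpsa and Rps3. The median log2 difference was 0.14 over the 84 and -0.18 over all tested genes. Rplp0 had 2184 and 1075 FPKM in tumours and 798, 325 and 475 in brains, and both tumours lay above all brains (log2 difference 1.62, SE 0.54, adjusted p = 0.0929). Without wild type tumour 2, which enters only through the shared spread, its adjusted p was 0.0392.

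Rps2 had 602 and 565 FPKM in knockout tumours and 222, 359 and 231 in knockout brains. The groups were separate here too, with a log2 difference of 1.14 (SE 0.42, adjusted p = 0.124). Rpsa, a small subunit protein also known as the laminin receptor, had 565 and 476 FPKM in tumours and 299.6, 339 and 267 in brains. Rps3, at the mRNA entry, had 146 and 118 FPKM against 64.0, 95.4 and 67.3. Their log2 differences were 0.79 (adjusted p = 0.144) and 0.81 (adjusted p = 0.167), and for both genes each tumour lay above each brain.

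The lower side was led by Rps25, a small subunit protein used in initiation from certain internal entry sites, with 89.8 and 51.6 FPKM in knockout tumours and 237, 167 and 119 in knockout brains. Its log2 difference was -1.29 (SE 0.45, adjusted p = 0.105). Rpl22l1 had 27.6 and 4.38 FPKM in tumours and 67.8, 61.5 and 22.9 in brains, which overlapped (log2 difference -1.92, adjusted p = 0.212). Rps27l had 0 and 12.5 FPKM against 31.9, 0 and 11.6, and these overlapped as well. Rpl35a (158 and 126 FPKM in tumours, 398, 242 and 179 in brains) and Rps4l (5.38 and 4.28 against 27.1, 22.99 and 11.8) were lower in both tumours, with adjusted p of 0.363 and 0.467.

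Rpl10a had 64.2 and 117 FPKM in knockout tumours and 112, 92.1 and 63.5 in knockout brains. The groups overlapped, and the log2 difference was -0.01 (SE 0.57). Rps19bp1, with 11.2 and 28.4 FPKM in tumours and 7.62, 14.4 and 15.2 in brains, overlapped too. In all, 13 genes were higher in both knockout tumours than in every knockout brain (15.5%, against 22% of all tested genes), among them Rplp0, Rps2, Rps3, Rpsa, Rpl3, Rpl4, Rpl5 and Rps6. A further 6 were lower (7.14%, against 28.6%): Rpl31, Rpl35a, Rps15a, Rps21, Rps25 and Rps4l.

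The 2 tumour contrasts share no libraries. The test of their difference, the tissue by genotype term, passed for none of the 84 genes by limma, where 0.00641% of all tested genes passed. An unadjusted p under 0.05 was reached by 496 of all 15604 tested genes and by 3 of the 84. These were Rps27l (4.07), Rpl10a (-1.79) and Rps19bp1 (-3.28), as knockout minus wild type of the log2 difference between tumour and brain. Next in p were Rpl36al (1.90), Rpl37rt and Rpl37 on the higher side and Rps25 (-1.23) and Rps18 on the lower. All had an adjusted p of 1.00. The calls made in wild type mice only were thus not shown to differ between the genotypes.

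Knockout was set against wild type within each tissue, the comparison that bears on Eltd1. In tumours, none of the 84 genes passed by limma, where 0.0192% of all tested genes passed. None of the 84 had an unadjusted p under 0.05, against 485 of all 15604 tested genes. The median log2 difference was -0.06 over the 84 and 0.16 over all tested genes. The smallest p on the higher side were those of Rpl22l1 (log2 difference 1.96, SE 0.90), Rps19, Rps3a2 and Rpl31, and on the lower side those of Rps25, Rpl36a, Rpl10a and Rps28. Rps19 had 369 and 383 FPKM in knockout tumours and 345, 270.0 and 167 in wild type tumours, and was the only tested gene of the set whose groups did not overlap here (1.19%, against 10.8% of all tested genes for higher and 4.61% for lower). Rpl31 had 204 and 185 FPKM in knockout tumours and 356, 0 and 93.1 in wild type tumours, so that its log2 difference of 2.60 rests on the 0 of wild type tumour 2.

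In brain, none of the 84 genes passed between genotypes by limma, where 0.00641% of all tested genes passed. An unadjusted p under 0.05 was reached by 679 of all 15604 tested genes and by 2 of the 84. These were Rps19bp1 (log2 difference 2.41, SE 0.91) and Rps3a2, a copy of Rps3a1 (2.34, SE 0.99). Both had an adjusted p of 1. Rps3a2 had 36.7, 53.3 and 31.5 FPKM in knockout brains and 1.19, 17.5 and 11.5 in wild type brains, which did not overlap. Rpl31 was the other gene with separate groups, at 254, 281 and 283 FPKM against 204, 254 and 215. Together they make 2.38% of the 84, against 4.68% of all tested genes, and none was lower throughout, against 3.84%. Rps10 had 138, 61.2 and 66.3 FPKM in knockout and 3.598, 48.6 and 194 in wild type brains. Rpl10a had 112, 92.1 and 63.5 FPKM against 48.2, 26.1 and 73.6, with a log2 difference of 0.92 (SE 0.51). On the lower side the smallest p were those of Rpl37, Rps27l, Rps24 and Rpl14, of which Rpl37 had 253, 46.7 and 32.0 FPKM in knockout and 250.3, 185 and 159 in wild type brains.

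A gene that did not pass was not shown to be equal. For the 76 core genes the 95% interval of the log2 difference had a median half-width of 1.10 between genotypes in tumour and of 0.99 in brain. The interval lay wholly within 1 log2 unit of 0 for 12 and 17 of the 76. For tumour against brain it did so for 15 in wild type and 8 in knockout mice. The estimates themselves were small for most: 60 of 76 core genes differed by less than 0.5 between genotypes in tumour and 65 of 76 in brain.

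Other genes of translation were described from lists to place these values. Ribosomal proteins with other names include Gnb2l1 (now Rack1, a scaffold on the small subunit) and Fau, which codes for a small subunit protein made as a fusion with a ubiquitin-like protein. Gnb2l1 had 837, 1354 and 677 FPKM in wild type tumours and 286, 179 and 275 in wild type brains. It rose in tumour, by 1.92 in wild type (SE 0.31, adjusted p = 0.00252) and by 1.598 in knockout mice (SE 0.35, adjusted p = 0.0197). Fau did not pass, with log2 differences of -0.32 in wild type mice and 0.04 in knockout mice.

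The genes listed for ribosome biogenesis, Myc among them, were higher in tumour by value in 85 of 91 in either genotype. Of all tested genes, 7.7% rose and 11.7% fell in wild type mice, and 4.79% and 2.29% in knockout mice, and the list counts that follow stand beside these shares. In wild type mice 33 of 91 biogenesis genes rose and none fell, with a median log2 difference of 1.55, and in knockout mice 14 rose and none fell, with a median of 1.30. The core ribosomal protein genes had medians of 0.16 and 0.14. Mybbp1a, a nucleolar Myb-binding protein, rose by 4.42 in wild type (SE 0.35, adjusted p = 7.21e-05) and Ddx21, a nucleolar RNA helicase, by 3.42. No count is given without either knockout tumour, as that leaves 1 library in the group. The count in knockout mice fell to 9 and 8 without knockout brains 1 and 2, where 3.62 and 3.64% of all tested genes passed. In wild type mice it lay between 22 and 42 without any 1 library, where 11.8 to 25.2% of all tested genes passed in either direction. The count was 10 in a fit to only the wild type libraries (3.93% of all tested genes) and 55 with library weights (31.6%).

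Other mRNAs known to carry a TOP motif also differed more than the ribosomal protein genes by value. Of 20, 10 rose in wild type mice and 6 in knockout mice, and none fell, with medians of 0.81 and 0.83. Npm1, a nucleolar chaperone that is in the biogenesis list as well, rose by 2.77 and 2.87, and Vim, an intermediate filament, by 2.38 and 2.15. The wild type count was 6 when either of wild type tumours 1 and 2 or any wild type brain was left out. In these settings 11.8 to 15.8% of all tested genes passed in either direction. Leaving out a knockout tumour leaves 1 library in that group, so no knockout count is given for it.

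Of 12 elongation genes, 3 rose in wild type and 1 in knockout mice. Eef2, the translocase, rose by 1.84 and 1.55, and Abce1, which recycles ribosomes, by 1.86 in wild type mice only as a call. The lists share genes, so their counts are not separate. Of the genes that rose in wild type mice, Eef1a1, Eef2, Eif3e, Eif4b, Pabpc1 and Gnb2l1 are also in the TOP list. Of 37 initiation genes, 10 rose and 2 fell in wild type and 7 rose and 1 fell in knockout mice, led by the eIF3 subunits Eif3d (3.56 in wild type) and Eif3a (2.49 and 2.57). In knockout mice the initiation count was 4 without knockout brain 2, where 3.64% of all tested genes passed in either direction. Without either knockout tumour 1 library is left in that group, and no initiation count is given. In the mTOR list, 2 of 25 genes rose in each genotype, a share near that of all tested genes in wild type mice, Larp1 (1.51 and 1.55) and Larp4 (1.52 and 1.93), and 1 fell in wild type mice. Mitochondrial ribosomal protein genes had medians of 0.02 and 0.03, and 1 of 77 rose (Mrps12) and 1 fell (Mrps33) in wild type mice. Of 15 genes of the integrated stress response, 5 and 4 rose, among them Asns (1.69 and 1.84), which makes asparagine. No gene of these 7 lists passed between genotypes in either tissue.

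**Figure D3:**
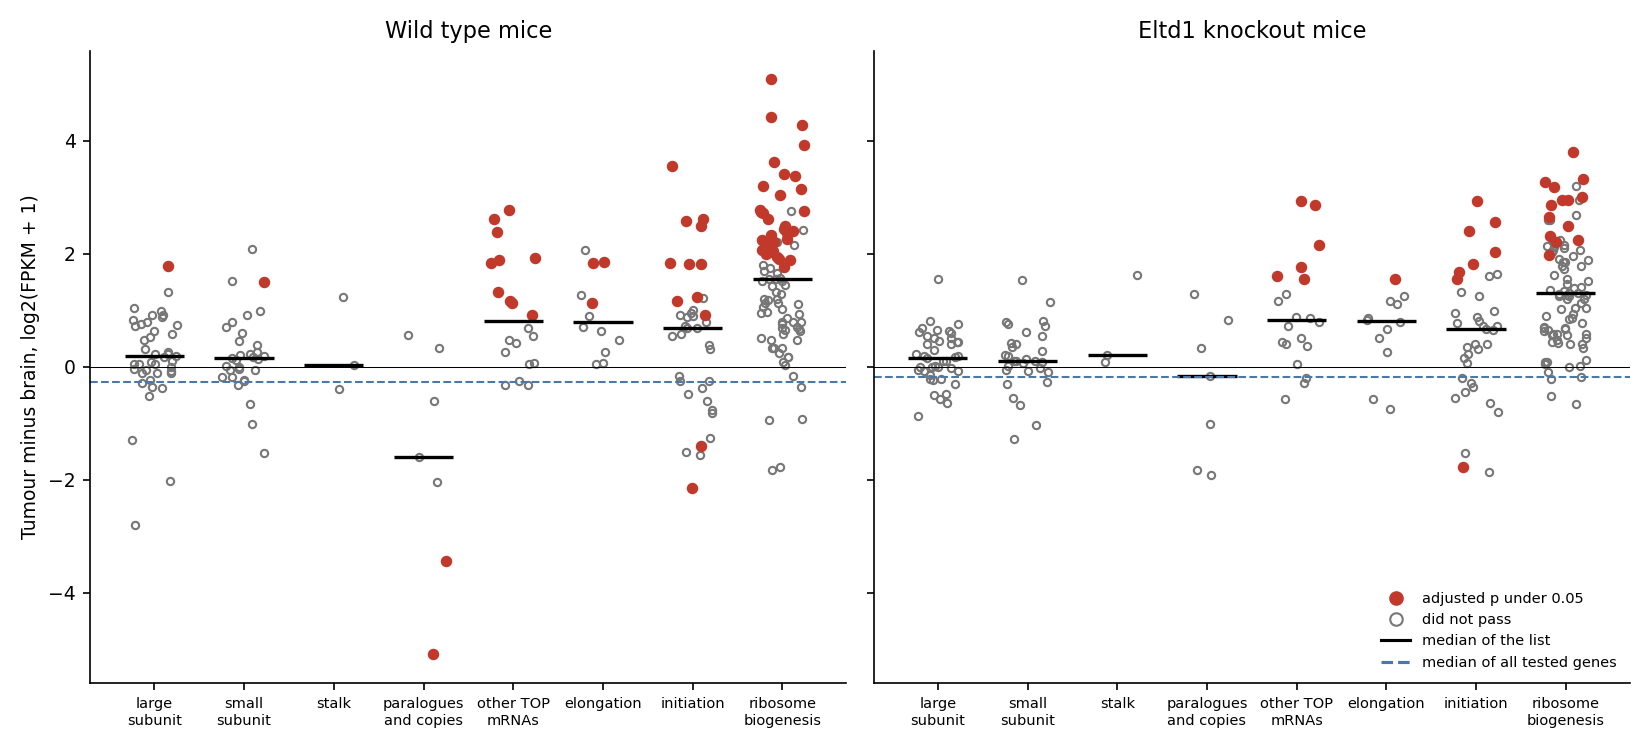
Log2 difference, tumour minus brain, of each tested gene by class or list, in wild type (left) and knockout mice (right). Filled points passed limma at an adjusted p of 0.05, bars are list medians, and the dashed line is the median of all tested genes (-0.26 and -0.18); the medians of the subunit genes lie near 0, and 33 and 14 of 91 biogenesis genes are filled.

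The proportions among the core genes were also followed within each library, as each gene's level over the median of the core. This pattern was alike in most libraries. Between 1 and 7 of the 76 core genes lay more than 2-fold from their usual place (1 log2 unit from the median over libraries) in 10 libraries, and 15 did so in wild type tumour 2. Distances were taken on log2(FPKM + 1), so those of genes at or near 0 depend on the 1 FPKM added. In wild type tumour 2, Rpl31 and Rpl24, both listed at 0, were farthest, at -8.45 and -7.18 log2 units. Rps23, of the decoding centre, reached 4212 FPKM in that library, against 244 to 734 in the other 10. In wild type brain 1, Rps21 (1.85 FPKM) and Rps10 (3.598 FPKM) lay at -4.69 and -3.91 log2 units from their usual place, where the other wild type brains had 148 and 131 FPKM of Rps21 and 48.6 and 194 of Rps10.

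**Figure D4:**
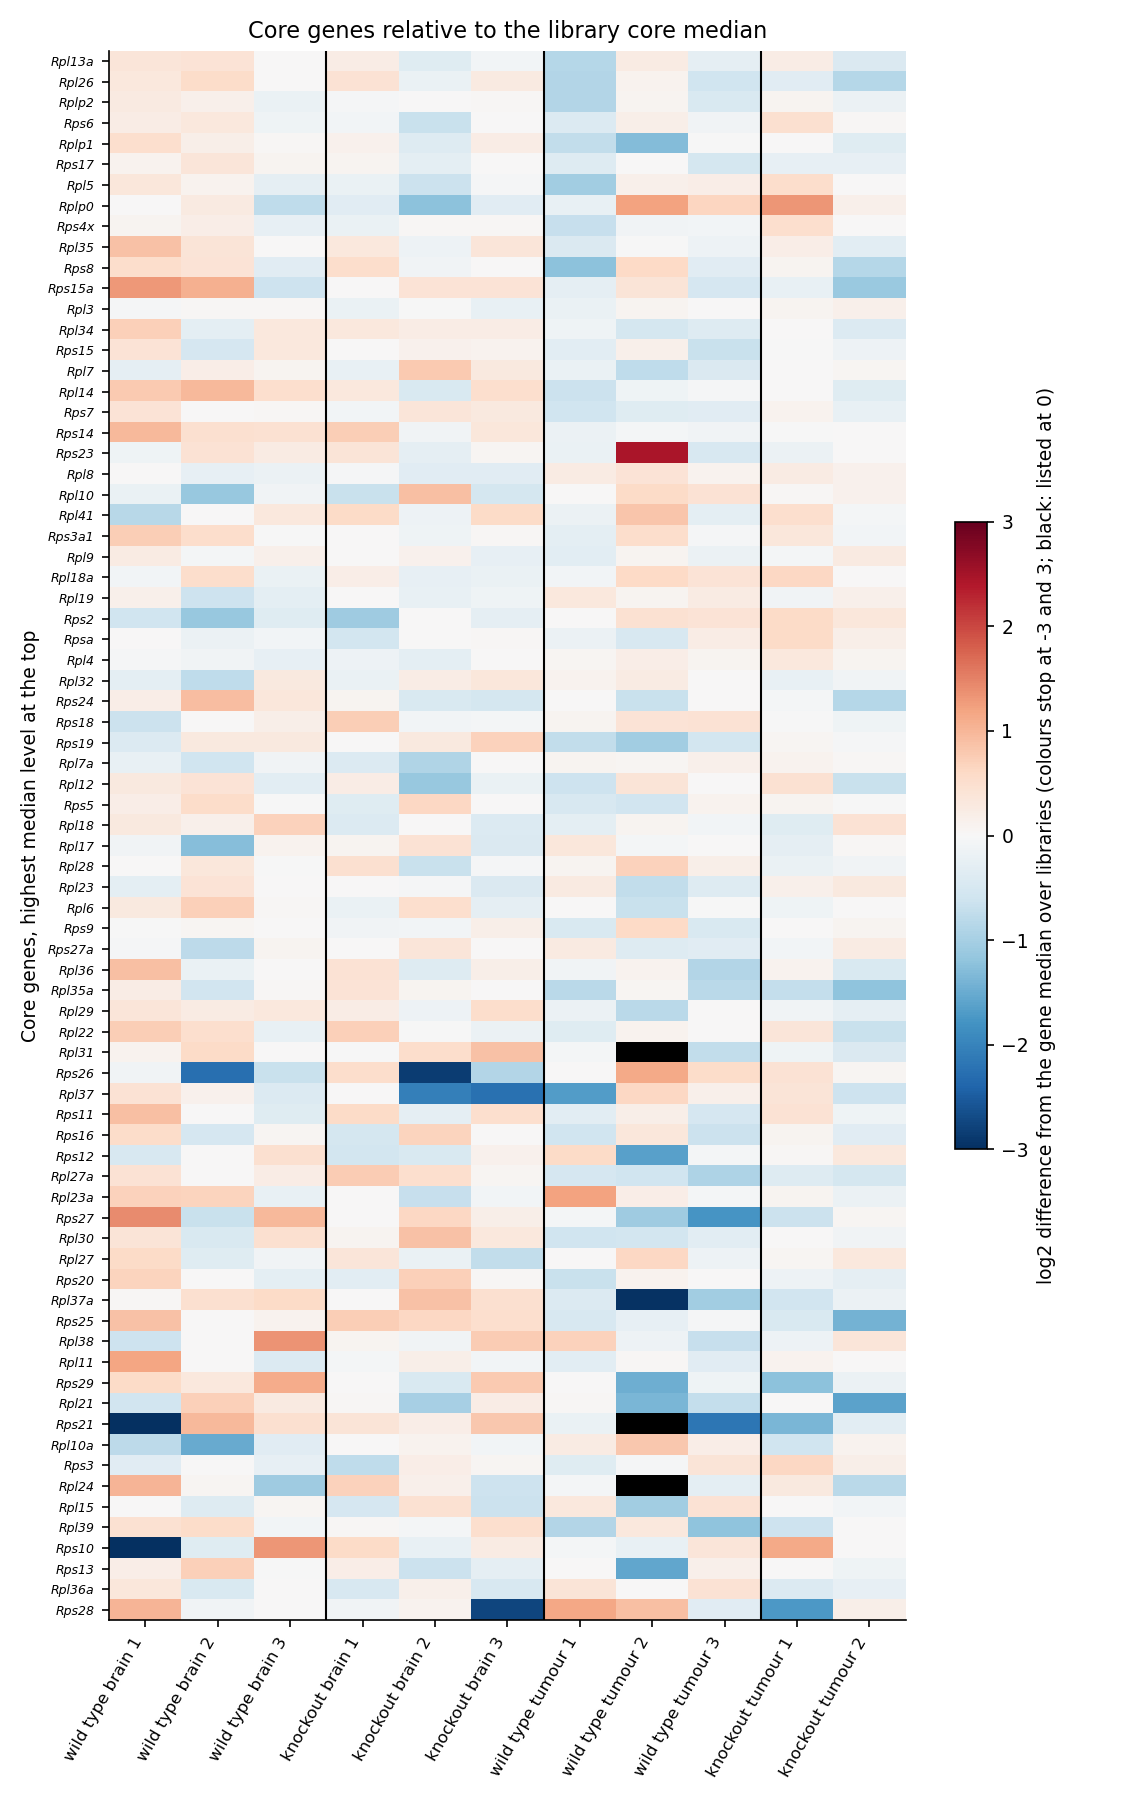
Level of each of the 76 core genes relative to the core median of its library, shown as the log2 difference from the gene's median over the 11 libraries; rows are ordered by level, columns are libraries by group, and black marks values listed at 0. Wild type tumour 2 holds 15 genes more than 1 log2 unit away, among them Rps23 above and Rpl24, Rpl31 and Rps21 at 0.

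The core genes moved together only in part across libraries. Over the 11 libraries, which differ in tissue, genotype and unknown depth, the Pearson correlation of each core gene with the mean of the others on the log2 scale ran from 0.892 (Rpl9) to -0.318 (Rpl31), and 34 of 76 lay above 0.7. The median over the 2850 pairs of core genes was 0.434. The genes at the bottom, Rpl31, Rpl24 and Rps21, are those listed at 0 in wild type tumour 2. Of the genes outside the set, Fam173a (0.848), Mis12 (0.813), Atpif1 (0.808), Cenpo, Taf12, Otulin, Tgfa, Naca (0.774), Mrfap1 and Kin were most like the mean of the tested ribosomal protein genes over the same 11 libraries. They are the top of a ranking of all tested genes outside the set, so their values are high by selection. Fam173a was listed at 0 in wild type tumour 3, wild type brain 2 and knockout brain 3, and Cenpo in wild type brain 2.

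When each library was scaled to its core median, a setting chosen after the data were seen, Rps19bp1 was higher in wild type tumour and Rpl22l1, Rps27l and Rpl37a were lower, and Rps2 and Rpl10a did not pass (limma, adjusted p = 0.0886 and 0.0585). Relative to the core median, Rps2 stood at 1.26, 1.73 and 1.67 in wild type tumours and at 0.841, 0.572 and 0.979 in wild type brains, so the order of the groups was kept on this scale. Rplp0 stood at 2.35, 6.31 and 4.30 against 2.73, 3.29 and 1.605, and overlapped. Rpl10a stood at 0.362, 0.533 and 0.349 against 0.178, 0.107 and 0.242, and did not overlap.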

How the data were processed

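RNA pulled down with tagged endothelial ribosomes was measured in 11 libraries of separate mouse samples. The authors deposited FPKM per gene, per the file headers. TopHat2 2.1.1, Cufflinks 2.2.1 and GRCm38 are named in the submitters' processing notes; for annotation, strand use and reads that fit several copies: not given in the sources used here. Overlapping, antisense and near-identical genes are therefore uncertain. Each file held 46073 entries; 482 entries of 211 repeated symbols were summed, leaving 45802 genes.

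Limma 3.58.1 (R 4.3.3; lmFit, contrasts.fit, eBayes with trend) was fitted to log2(FPKM + 1) of the 15604 genes with at least 1 FPKM in at least 2 libraries, with 4 group means and 7 residual degrees of freedom. This scale understates changes of low genes. Tests were two-sided, adjusted by Benjamini-Hochberg over all tested genes in each of 5 contrasts, at 0.05. The fit was also run on simulated log2 values with independent normal noise for each gene, which held no outlying library. No result here rests on that run. Replicate numbers only name libraries. Named were Rpl10a, the stalk genes, Rpsa, paralogues with their main copies, the 5 highest and 5 lowest genes, those listed at 0, up to 10 passing genes per direction and contrast (or the 4 smallest p where under 4 passed), 2 genes of each other list, and the 10 genes most alike; further genes were named after their values were seen. Genes and lists were chosen with earlier results of these data known. Pseudocounts, filters, scalings, library weights, fits to fewer groups and leaving out libraries were alternatives. Python 3.11.15 and pandas 2.3.3 were used for the other steps. A gene that the naming rule asks for is not reported here.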

Additional observations from a re-analysis of the deposited data

How the results depend on the processing

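Under the 25 alternatives, no gene of the set that the naming rule asks for changed direction past the threshold. Other genes named above were not put through this check. In wild type mice, 5 genes of the set passed between tumour and brain, where 19.4% of all tested genes did. After quantile normalization 10 passed (18.9% of all tested genes), in a fit to only the groups compared 1 (3.93%), and with library weights 11 (31.6%). The count ranged from 1 (12.7% of all tested genes) to 16 (25.2%) when 1 library was left out. The median log2 difference in this contrast ranged from -0.10 to 0.52 with 1 library left out, and was -0.36 after scaling to the core median, an alternative added after the data were seen, which sets the core median to be equal by construction. In knockout mice, 0 passed, where 7.08% of all tested genes did. After quantile normalization 1 passed (11.7% of all tested genes), and with library weights 6 (26.4%). With 1 library other than a knockout tumour left out, 0 to 1 passed (3.62 to 12.9% of all tested genes). Counts of the 3 other contrasts were 0 in each alternative. Over all alternatives and the 84 tested genes, 21 calls were lost and 39 gained. The median over all tested genes in wild type mice was -0.26, and 0.01 after quantile normalization. The cause of these shifts was not tested.

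No paired analysis was possible because the sample numbers in the labels run through the whole series and none is shared between groups; the replicate numbers used here follow accession order and only name libraries. Groups of 2 or 3 libraries, unknown depth, exact zeros and near-identical gene copies limit each value, and p-values cover only the spread between these samples.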

Other observations

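Rows of ribosomal protein pseudogenes were left out of the set, and 258 of them were in the files, 186 listed at 0 in every library. The others summed to 182 to 454 FPKM in the 5 tumour libraries and to 54.4 to 115 FPKM in the 6 brain libraries, which did not overlap. As a share of the sum over the 91 genes, this was 0.611 to 0.769% in tumour and 0.137 to 0.329% in brain. Much of it came from Rpsa-ps10, with 179, 189 and 112 FPKM in wild type tumours, 199.3 and 176 in knockout tumours, and 0.211 to 33.1 in brains. Rpsa itself was at 307 to 565 FPKM in tumours and 258 to 342 in brains. Rps23-ps1 was at 227 FPKM in wild type tumour 2, the library in which Rps23 was listed at 4212 FPKM, and at 0 to 44.1 in the others. The sources used here do not say how reads were divided between a gene and its copies.

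The core genes lay on 19 chromosomes, with the largest number, 14 of 76, on chromosome 7 (RefSeq, GRCm38.p6).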
